A study of Mus musculus with 12 samples.

Results

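Open chromatin of Tim4-negative Kupffer cells (KN-RM) was set against that of Ly6C-high blood monocytes (Blood-Ly6CHi-NASH), both sorted from C57BL/6J mice given the NASH diet, which induces a fatty liver disease with inflammation. The members are the peaks of these 2 lists, 34293 in KN-RM and 69616 in blood, which together hold 103909 of the 334073 peaks in the 6 lists of the study. Since the lists differ in length, blood was cut to its 34293 best-scored peaks, 49.3% of the list. A list-specific region is a peak among the best-scored 50% of an equal-length list (17146 peaks) with no peak centre of the other equal-length list within 1000 bp.

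ATAC-seq uses a transposase that cuts and tags accessible DNA, so peaks of tags mark open chromatin. The study comprised 12 libraries, 2 for each of 6 groups, with 1 deposited peak list per group built from both libraries. All groups came from C57BL/6J mice. Besides KN-RM, which are F4/80-high and Tim4-negative, and the blood monocytes, NASH-diet mice gave CD11b-high recruited liver macrophages with low (Ly6CLo-RM) or high (Ly6CHi-RM) Ly6C and Tim4-positive F4/80-high Kupffer cells (KC-N). Tim4-positive F4/80-high Kupffer cells also came from mice on the control diet (KC-H). With 1 list per group there is no value per library, so no difference below has a replicate check and no test was made. Intervals are 95% Wilson intervals and cover counting error only. Liver cells were released by perfusion and digestion and blood cells were not taken from digested liver, so cell type, tissue and isolation cannot be told apart. The name KN-RM shares its suffix with the recruited macrophages, so the word Kupffer does not settle where these cells came from.

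Kupffer cells are the macrophages that line the liver sinusoids, where they clear blood-borne particles, dying cells and iron from old red cells. When resident Kupffer cells die, Ly6C-high monocytes enter the liver and can take on Kupffer cell features under signals of the Notch and TGF-beta families and of liver X receptors (LXR), the oxysterol receptors that control cholesterol export. Open promoters mark genes that can be transcribed, while open regions farther away include enhancers, which differ more between cell types.

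Among the promoters with a list-specific region, those of the best-scored listed genes are shown so that the letters under these peaks can be read. Each runs from 250 bases before a start site to 50 bases after its first base in RefSeq (GRCm38.p6), 5′ to 3′ on the gene's strand. Capitals mark matches to the searched motifs on either strand. In KN-RM these were H2-Eb1 (chr17:34305617-34305916, plus strand) and H2-Aa (chr17:34287774-34288073, minus strand), which encode chains of major histocompatibility complex (MHC) class II. They also included Maff (chr15:79347270-79347569, plus strand), a small Maf transcription factor, and C1qb (chr4:136886151-136886450, minus strand), a chain of complement C1q.
H2-Eb1: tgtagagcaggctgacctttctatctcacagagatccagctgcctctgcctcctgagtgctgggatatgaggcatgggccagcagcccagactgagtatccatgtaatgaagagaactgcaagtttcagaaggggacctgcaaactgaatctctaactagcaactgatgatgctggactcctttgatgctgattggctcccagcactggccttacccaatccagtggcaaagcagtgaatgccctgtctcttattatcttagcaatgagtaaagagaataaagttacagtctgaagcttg
H2-Aa: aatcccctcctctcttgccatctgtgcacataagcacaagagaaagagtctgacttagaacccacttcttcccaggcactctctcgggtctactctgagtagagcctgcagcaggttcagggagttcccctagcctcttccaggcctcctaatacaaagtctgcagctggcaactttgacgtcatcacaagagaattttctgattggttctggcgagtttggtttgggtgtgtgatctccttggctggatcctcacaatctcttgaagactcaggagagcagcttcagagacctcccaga
Maff: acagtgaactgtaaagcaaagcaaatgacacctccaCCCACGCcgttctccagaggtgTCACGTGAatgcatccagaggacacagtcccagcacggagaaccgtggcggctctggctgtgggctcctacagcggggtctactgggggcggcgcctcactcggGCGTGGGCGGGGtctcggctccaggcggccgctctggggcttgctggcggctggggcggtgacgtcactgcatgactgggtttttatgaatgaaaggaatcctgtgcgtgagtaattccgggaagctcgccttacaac
C1qb: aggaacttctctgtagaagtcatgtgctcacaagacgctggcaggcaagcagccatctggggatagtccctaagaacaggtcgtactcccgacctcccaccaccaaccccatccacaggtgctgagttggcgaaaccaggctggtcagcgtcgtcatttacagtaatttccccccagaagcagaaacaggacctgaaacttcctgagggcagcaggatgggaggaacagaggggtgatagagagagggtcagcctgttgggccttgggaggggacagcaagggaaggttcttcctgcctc

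In blood, 2 listed genes had such a promoter, S100a4 (chr3:90603520-90603819, plus strand), a calcium-binding protein of migrating cells, and Plac8 (chr5:100572156-100572455, minus strand), a monocyte marker. The promoters of 2 further genes were added after their values were seen, because they hold 2 of the 5 best-scored blood-specific regions. These are Gprin3 (chr6:59426257-59426556, minus strand), which encodes a G-protein-binding protein, and Hsd11b1 (chr1:193242311-193242610, minus strand), the enzyme that regenerates active glucocorticoid.
S100a4: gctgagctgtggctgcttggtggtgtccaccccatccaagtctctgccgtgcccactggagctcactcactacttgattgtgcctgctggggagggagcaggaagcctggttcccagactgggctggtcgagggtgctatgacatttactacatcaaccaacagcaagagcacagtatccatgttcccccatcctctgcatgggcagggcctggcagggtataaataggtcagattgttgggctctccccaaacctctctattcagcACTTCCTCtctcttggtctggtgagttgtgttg
Plac8: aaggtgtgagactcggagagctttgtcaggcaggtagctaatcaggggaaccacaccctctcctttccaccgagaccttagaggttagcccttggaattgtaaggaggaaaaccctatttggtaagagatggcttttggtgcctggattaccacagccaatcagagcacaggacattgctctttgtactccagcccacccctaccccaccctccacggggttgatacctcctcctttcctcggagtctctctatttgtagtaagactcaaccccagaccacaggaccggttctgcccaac
Gprin3: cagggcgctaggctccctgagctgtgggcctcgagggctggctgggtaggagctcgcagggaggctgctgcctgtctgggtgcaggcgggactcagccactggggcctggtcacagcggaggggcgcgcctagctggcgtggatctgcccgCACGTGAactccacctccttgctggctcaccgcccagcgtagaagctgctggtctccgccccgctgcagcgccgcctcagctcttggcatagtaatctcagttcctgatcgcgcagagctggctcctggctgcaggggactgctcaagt
Hsd11b1: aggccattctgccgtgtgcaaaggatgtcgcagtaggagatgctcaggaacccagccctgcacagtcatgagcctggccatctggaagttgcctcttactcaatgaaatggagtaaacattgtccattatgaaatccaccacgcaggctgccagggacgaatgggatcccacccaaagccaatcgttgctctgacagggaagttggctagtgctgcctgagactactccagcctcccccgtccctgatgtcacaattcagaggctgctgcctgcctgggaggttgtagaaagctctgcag

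The motif letters searched, on both strands, were GAGGAAGT (ETS of the PU.1 kind), TTGCNNAA (C/EBP), TGANTCA (AP-1), GTGGGAA (RBPJ), TGCTGAC (MAF), GAAANNGAA (IRF), GGGCGGGG (KLF and SP), TCACGTG (MiT/TFE E-box), TGTGGTTT (RUNX), GTCTAGAC (SMAD), GCGTGGG (EGR), AGGGGGC (CTCF core), GGGANTTTC (NF-kB) and 2 copies of AGGTCA spaced by 4 bases (LXR) or 1 base (PPAR and RXR). The Maff window held 1 KLF and SP match that overlaps an EGR match, a second EGR match on the other strand, and an E-box whose 2 matches are the same site read on both strands. The Gprin3 window held 1 E-box match and the S100a4 window 1 PU.1-kind match close to its start. The H2-Eb1, H2-Aa, C1qb, Plac8 and Hsd11b1 windows held none of these letters.

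Over all 21262 promoter windows, 74 windows of 69 genes held the centre of a KN-RM-specific region and 145 windows of 135 genes that of a blood-specific region, while 7111 windows held a peak of both lists. IRF letters were found in 18.9% (11.6 to 29.3%) of the windows with a KN-RM-specific region, 2.07% (0.706 to 5.91%) of those with a blood-specific region and 8.14% of all windows. E-box letters were found in 16.2% (9.53 to 26.2%) of the windows with a KN-RM-specific region, 3.45% (1.48 to 7.82%) of those with a blood-specific region and 4.39% of all windows. KLF and SP letters were found in 29.7% (20.5 to 40.9%) of KN-RM-specific and 44.1% (36.3 to 52.3%) of blood-specific windows, against 39.2% of the windows with a peak of both lists and 23.6% of all windows, and these intervals overlap and both cover the 39.2%. C/EBP letters were found in 4.05% (1.39 to 11.3%) of KN-RM-specific and 9.66% (5.84 to 15.6%) of blood-specific windows, beside 10.2% of all windows, so these intervals overlap. Windows of the same gene overlap and are not independent. CTCF core letters were found in 14.9% (8.51 to 24.7%) of KN-RM-specific and 22.8% (16.7 to 30.2%) of blood-specific windows, against 17.1% of the windows with a peak of both lists and 12.9% of all windows. EGR letters were found in 6.76% (2.92 to 14.9%) of KN-RM-specific and 11% (6.91 to 17.2%) of blood-specific windows, against 8.92% of the windows with a peak of both lists and 6.35% of all windows. For both motifs the blood-specific interval lies above the share of all windows and overlaps the KN-RM-specific one. It also covers the share of the windows with a peak of both lists. AP-1 letters were found in 9.46% (4.66 to 18.3%) of KN-RM-specific, 4.83% (2.36 to 9.63%) of blood-specific and 6.99% of all windows. PU.1-kind letters were found in 6.76% (2.92 to 14.9%) of KN-RM-specific, 4.83% (2.36 to 9.63%) of blood-specific and 3.13% of all windows. RBPJ letters were found in 2.7% of KN-RM-specific, 3.45% of blood-specific and 6.07% of all windows, and MAF letters in 4.05% of KN-RM-specific, 5.52% of blood-specific and 4.3% of all windows. Of the windows with a peak of both lists, 6.51% held IRF, 6.88% E-box, 7.5% C/EBP and 4.23% AP-1 letters. PU.1-kind letters were in 3.5% of these, RBPJ in 5.67% and MAF in 3.46%. The blood-specific E-box interval covers the 6.88%. The KN-RM-specific AP-1 interval lies above the 4.23% but covers the 6.99% of all windows. RUNX and NF-kB letters were in at most 2 windows of either specific set. Of all windows, RUNX letters were in 1.61%, NF-kB in 1.08%, SMAD in 0.226% and the PPAR and RXR repeat in 0.047%. The LXR repeat was in none.

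The 6 lists held between 34293 peaks (KN-RM) and 69616 peaks (blood), on 100354 merged regions. The lowest score kept at equal length was 7 in KN-RM and 46 in blood, and the lowest among the best-scored 50% was 34 in KN-RM and 78 in blood. The median signal, the authors' normalized tag count, was 19.6 in KN-RM and 106.2 in blood at equal length. These are values within each list, and regions were compared by rank, where rank 1 is the best-scored peak. The depth of the libraries is not given in the sources used here, so its part in these differences was not tested.

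The sorted populations were checked against marker genes, counting peaks assigned to each gene at equal length. A peak belongs to the gene around its centre or, outside genes, to the nearest gene within 100 kb. Of 10 Kupffer cell markers, 8 had a peak in KN-RM (39 peaks in all) and 6 in blood (15 peaks). Clec4f, a lectin of Kupffer cells, had 5 peaks in KN-RM and 0 in blood. Timd4, which encodes Tim4, had 0 peaks in KN-RM and 0 in blood, against 0 in KC-N and 7 in KC-H. Marco, a scavenger receptor, had 0 peaks in KN-RM and 1 in blood. Of 9 classical monocyte markers, 8 had a peak in KN-RM (37 peaks) and 9 in blood (33 peaks). Irf8 and Klf4, transcription factors used by both cell types, held 15 and 8 of the peaks in KN-RM and 6 and 7 of those in blood.

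Most open regions were shared. Of the KN-RM peaks, 76.4% (76.0 to 76.9%) had a blood peak within 1000 bp, and of the blood peaks 72.7% (72.3 to 73.2%) had a KN-RM peak. Among the best-scored 50%, 1845 peaks (10.8%, 10.3 to 11.2%) were specific to KN-RM and 1790 (10.4%, 9.99 to 10.9%) to blood. Among the lower-scored peaks, 36.4% of KN-RM peaks and 44.1% of blood peaks had no partner. A KN-RM-specific region may still be a lower-scored blood peak: 1062 of the 1845 (57.6%, 55.3 to 59.8%) lay within 1000 bp of a blood peak below the equal-length limit, and 783 (42.4%, 40.2 to 44.7%) had none in the whole blood list. Blood-specific regions have no KN-RM peak at all within 1000 bp, because the KN-RM list was used whole. For 23284 pairs of peaks with centres at most 200 bp apart, the ranks had a Spearman correlation of 0.67, a description across peaks that share libraries and sequence. In 582 of these pairs the KN-RM rank was better by at least 50 percentage points, and in 592 the blood rank was.

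The specific regions of both lists were mostly far from start sites. Within 1 kb of a start lay 110 of 1752 KN-RM-specific regions (6.28%, 5.24 to 7.51%) and 202 of 1729 blood-specific regions (11.7%, 10.3 to 13.3%). Of the shared peaks of the same score range, 47.0% in KN-RM and 47.3% in blood lay that close. The median distance to a start was 25725 bp for KN-RM-specific and 27151 bp for blood-specific regions, against 1871 bp for shared KN-RM peaks and 2031 bp for shared blood peaks. Between 1 and 10 kb from a start lay 23.2% (21.3 to 25.3%) of KN-RM-specific and 16.9% (15.3 to 18.8%) of blood-specific regions. Within genes lay 54.0% of KN-RM-specific and 58.0% of blood-specific regions.

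**Figure D1:**
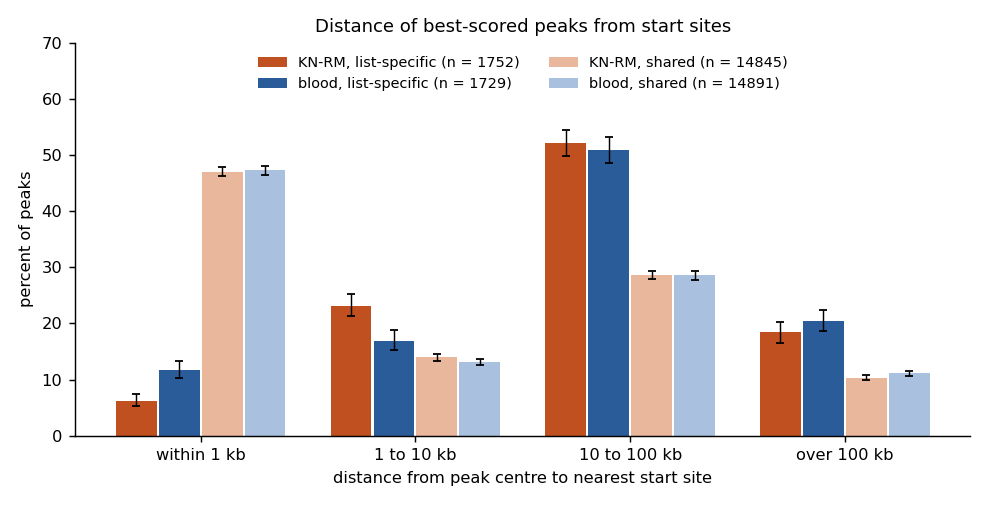
Percent of best-scored peaks in 4 classes of distance from the peak centre to the nearest start site, for list-specific and shared peaks of KN-RM and blood, with 95% Wilson intervals as error bars. Within 1 kb of a start are 6.28% of KN-RM-specific and 11.7% of blood-specific regions, against 47.0% of shared KN-RM peaks and 47.3% of shared blood peaks.

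Regions specific to KN-RM were largely open in the Tim4-positive Kupffer cells too. At equal length, 98.5% (97.9 to 99.0%) of them were found in KC-N and 88.6% (87.0 to 89.9%) in KC-H. Fewer were found in the recruited macrophages, 53.2% (50.9 to 55.5%) in Ly6CLo-RM and 42.3% (40.1 to 44.6%) in Ly6CHi-RM. Blood-specific regions were found in Ly6CHi-RM in 94.7% (93.6 to 95.7%) and in Ly6CLo-RM in 68.9% (66.8 to 71.0%), but in KC-N in 24.7% (22.8 to 26.7%) and in KC-H in 24.5% (22.6 to 26.6%). Shared peaks of the same score range were found in each of these lists in 94.7 to 99.8%. The length of the further lists moves the lower shares. In the whole lists, 73.4% (71.3 to 75.4%) of the same KN-RM-specific regions were found in Ly6CLo-RM and 74.6% (72.6 to 76.6%) in Ly6CHi-RM. For these 1845 regions the order of the recruited lists seen at equal length was thus not kept. With the 783 regions absent from the whole blood list it was kept, at 52.9% in Ly6CLo-RM and 46.9% in Ly6CHi-RM. Of the blood-specific regions, 49.3% (47.0 to 51.6%) were then found in KC-N and 52.3% (50.0 to 54.7%) in KC-H.

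**Figure D2:**
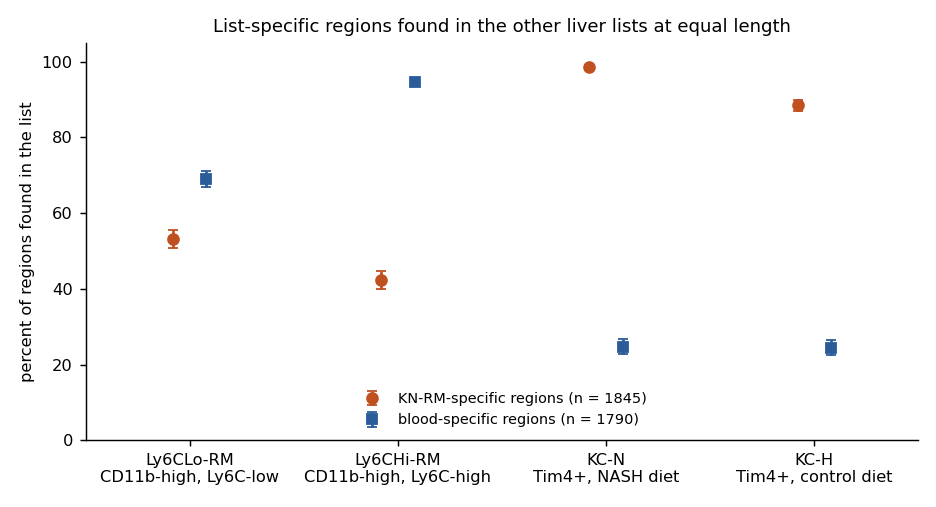
Percent of the 1845 KN-RM-specific and 1790 blood-specific regions that have a peak centre within 1000 bp in each of the 4 other lists, cut to the same length, with 95% Wilson intervals as error bars. KN-RM-specific regions reach 98.5% in KC-N and 42.3% in Ly6CHi-RM, while blood-specific regions reach 94.7% in Ly6CHi-RM and 24.7% in KC-N. In the whole lists the same regions reach 74.6% in Ly6CHi-RM for KN-RM and 49.3% in KC-N for blood.

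Taken region by region at equal length, 662 KN-RM-specific regions (35.9%) were open in both recruited lists, 320 (17.3%) in Ly6CLo-RM alone, 119 (6.45%) in Ly6CHi-RM alone and 744 (40.3%) in neither. Of the 783 regions with no peak in the whole blood list, 510 (65.1%, 61.7 to 68.4%) were in neither. Of the blood-specific regions, 1216 (67.9%) were open in both recruited lists, 480 (26.8%) in Ly6CHi-RM alone, 18 in Ly6CLo-RM alone and 76 (4.25%) in neither. Only 7 KN-RM-specific and 62 blood-specific regions were in none of the other 4 lists. With the whole recruited lists, a count added after seeing the data, 1234 KN-RM-specific regions (66.9%, 64.7 to 69.0%) were in both and 348 (18.9%, 17.1 to 20.7%) in neither. Of the blood-specific regions, 1596 (89.2%, 87.6 to 90.5%) were then in both and 3 in neither. Presence in a further list is at equal length in what follows, unless the whole list is named. By the same count, 1134 regions were specific to KN-RM and 1036 to Ly6CLo-RM when these were compared. Between Ly6CLo-RM and Ly6CHi-RM there were fewer, 378 in Ly6CLo-RM and 290 in Ly6CHi-RM. Ly6CHi-RM and blood gave 233 in Ly6CHi-RM and 124 in blood. The fewest came from KN-RM and KC-N, with 70 in KN-RM and 117 in KC-N. These comparisons share lists with that of KN-RM and blood.

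Of 13048 genes with a peak in either equal-length list, 1089 (8.35%) had at least 1 more KN-RM-specific than blood-specific region and 1201 (9.2%) at least 1 more blood-specific region, and these genes are called for KN-RM or for blood. The share grows with the number of peaks at a gene: among genes with 10 or more peaks over both lists it was 25.4% for KN-RM and 22.0% for blood, and among genes with 1 to 3 peaks 3.65% for KN-RM and 5.27% for blood. Over all genes, 10.2% of KN-RM and 10.1% of blood best-scored peaks were list-specific. The median difference in peaks, KN-RM minus blood, was 0.0 over all genes. Peak counts per gene are at equal length unless the whole list is named. In the whole lists these genes held 32986 peaks in KN-RM and 63582 in blood.

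Genes of Kupffer cell identity were called for KN-RM in 10 of 22 with a peak and for blood in 0. They held 17 KN-RM-specific regions out of 41 best-scored peaks (41.5%, 27.8 to 56.6%), and 0 blood-specific out of 12 (0.0%, 0.0 to 24.2%). Their median difference in peaks was 1.0, and 12 of the 17 regions had no peak in the whole blood list. Cd5l, a secreted scavenger protein of tissue macrophages, had 10 peaks in KN-RM, 0 in Ly6CLo-RM, 1 in Ly6CHi-RM and 2 in blood. A KN-RM-specific region lay 13 bp before the Cd5l start (chr3:87357768-87357968). Cd38, an ectoenzyme that breaks down NAD, had 10 peaks in KN-RM, 4 in Ly6CLo-RM, 2 in Ly6CHi-RM and 2 in blood. All 4 of its specific regions were absent from the whole blood list and from both recruited lists and present in KC-N and KC-H, the nearest to the start being 27 bp before it. Slc40a1, the iron exporter ferroportin, had 2 peaks in KN-RM and 0 in blood, both specific. The whole blood list held 4 Slc40a1 peaks, and 1 of the 2 regions had a peak there. Sdc3, a heparan sulfate proteoglycan, had 14 peaks in KN-RM and 6 in blood. Spic, an ETS-family factor of iron-handling macrophages, had 2 peaks in KN-RM and 0 in blood, and Id3, a helix-loop-helix inhibitor needed by Kupffer cells, had 13 in KN-RM and 5 in blood. Other members with a peak were called for neither list and had no specific region. Among them, Vsig4 had 1 peak in KN-RM and 2 in blood, Cd163 had 2 in KN-RM and 3 in blood, and Kcna2 had 3 in KN-RM and 4 in blood. Adgre1 had 5 in KN-RM and 3 in blood, and Folr2 had 1 in KN-RM and 0 in blood.

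Genes of LXR and lipid handling were called for KN-RM in 8 of 24 and for blood in 0. They held 21 KN-RM-specific regions (24.7%, 16.8 to 34.8%, of 85) and 0 blood-specific (0.0 to 7.71%, of 46), with a median difference of 1.0 peaks. Abca1, which exports cholesterol to apolipoprotein A-I, had 24 peaks in KN-RM, 13 in Ly6CLo-RM, 15 in Ly6CHi-RM and 13 in blood. Of its 7 specific regions, 6 were absent from the whole blood list, 7 were in KC-N and KC-H, and 1 was in each recruited list. The best-ranked of these 7 regions (chr4:53126863-53127063) had rank 3407 in KN-RM. It was the 1 region with a peak in the whole blood list, of rank 59049. Abcg1, which exports cholesterol to larger lipoproteins, had 14 peaks in KN-RM, 11 in Ly6CLo-RM, 4 in Ly6CHi-RM and 4 in blood. Scd1, a fatty acid desaturase, had 9 peaks in KN-RM, 2 in Ly6CLo-RM, 1 in Ly6CHi-RM and 3 in blood, and it had 7 in KC-N and 7 in KC-H. All 3 of its specific regions were in both Tim4-positive lists. Apoe, a lipoprotein made by macrophages that export cholesterol, had 2 peaks in KN-RM and 2 in blood, and both KN-RM peaks lay by a blood peak of rank 39346. Nr1h3, which encodes LXR alpha, had 2 peaks in KN-RM and 2 in blood and no specific region.

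Genes of Trem2-type lipid-associated macrophages, a state of macrophages laden with lipid, were called for KN-RM in 12 of 22 and for blood in 1. They held 23 KN-RM-specific regions (31.5%, 22.0 to 42.9%, of 73) and 1 blood-specific region (3.12%, 0.554 to 15.7%, of 32), with a median difference of 1.5 peaks. Hilpda, a lipid droplet protein that slows lipolysis, had 8 peaks in KN-RM, 5 in Ly6CLo-RM, 4 in Ly6CHi-RM and 1 in blood. Its 6 specific regions spread over 25.4 kb before the gene (chr6:29245849-29271248), none had a peak in the whole blood list, and 6 were also in Ly6CLo-RM and 4 in Ly6CHi-RM. Anxa5, a phosphatidylserine-binding protein, had 6 peaks in KN-RM and 2 in blood, and Cd36, a fatty acid and lipoprotein receptor, had 10 in KN-RM and 6 in blood. Ctsb, a lysosomal cathepsin, had 12 peaks in KN-RM and 5 in blood. Of the defining genes of the state, Cd9, a tetraspanin, was called for KN-RM with 13 peaks in KN-RM and 6 in blood, though its 1 specific region had a blood peak in the whole list. Trem2 had 3 peaks in KN-RM and 2 in blood with no specific region, and Spp1 had 1 in KN-RM and 3 in blood. Gpnmb, called for blood, had 3 in KN-RM and 4 in blood.

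Genes of dead cell uptake and complement were called for KN-RM in 9 of 22 and for blood in 2, with 30.6% (18 to 46.9%) of KN-RM and 9.38% (3.24 to 24.2%) of blood best-scored peaks specific. Mertk, a receptor for dying cells, had 11 peaks in KN-RM, 0 in Ly6CLo-RM, 4 in Ly6CHi-RM and 6 in blood. Itgb5, an integrin chain in the uptake of dying cells, had 11 in KN-RM and 6 in blood, but 17 in the whole blood list. C1qa, C1qb and C1qc, the neighbouring genes of the C1q chains, each had 1 more KN-RM-specific region.

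Genes of antigen presentation were called for KN-RM in 5 of 17 and for blood in 1, with 26.2% (15.3 to 41.1%) of KN-RM and 11.8% (3.29 to 34.3%) of blood best-scored peaks specific. H2-Eb1 had 9 peaks in KN-RM, 10 in Ly6CLo-RM, 4 in Ly6CHi-RM and 1 in blood, and H2-Aa had 4 in KN-RM, 8 in Ly6CLo-RM, 4 in Ly6CHi-RM and 1 in blood. Together 8 specific regions lay over 18.9 kb (chr17:34287810-34306692), and 8 of them were in Ly6CLo-RM and 7 in Ly6CHi-RM. The H2-Eb1 promoter shown above had rank 2587 in KN-RM, while its blood peak had rank 40918 in the whole blood list. Of these 8 regions, 2 lacked a peak in the whole blood list. Flt3, the receptor of a dendritic cell growth factor, was the gene called for blood, with 1 peak in KN-RM, 4 in Ly6CLo-RM, 4 in Ly6CHi-RM and 8 in blood. A blood-specific region of rank 2949 lay 103 bp after its start (chr5:147400286-147400486).

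Genes of NF-kB signalling and inflammatory cytokines were called for KN-RM in 7 of 24 and for blood in 0, with 11 KN-RM-specific regions (14.9%, 8.51 to 24.7%) and 0 blood-specific (0.0 to 7.56%). These genes had a median of 10.5 peaks over both lists, so their calls are near the 25.4% of genes with 10 or more peaks, and the interval covers the 10.2% of all genes. Tnfaip3, the feedback inhibitor A20, had 19 peaks in KN-RM, 19 in Ly6CLo-RM, 8 in Ly6CHi-RM and 7 in blood. Il12b, the shared chain of interleukins 12 and 23, had 9 peaks in KN-RM and 4 in blood. Early response and AP-1 genes were called for KN-RM in 8 of 20 and for blood in 1, but 9.73% (5.52 to 16.6%) of their KN-RM best-scored peaks were specific, close to the 10.2% of all genes. Maff had 6 peaks in KN-RM, 6 in Ly6CLo-RM, 5 in Ly6CHi-RM and 1 in blood, but 7 in the whole blood list, where all 3 of its specific regions had a peak. Early response genes are known to react to tissue digestion, and the part of the isolation in these counts was not tested.

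Classical monocyte genes were called for blood in 9 of 24 and for KN-RM in 2. Of their best-scored peaks, 4 of 15 were specific in KN-RM (26.7%, 10.9 to 52.0%) and 11 of 35 in blood (31.4%, 18.6 to 48.0%), and their median difference was -1.0 peaks. Fn1, fibronectin, had 1 peak in KN-RM, 1 in Ly6CLo-RM, 5 in Ly6CHi-RM and 5 in blood, and both of its specific regions were open in Ly6CHi-RM and in no other liver list. Hp, haptoglobin, had 0 peaks in KN-RM and 2 in blood, both specific. Vcan, versican, had 2 peaks in KN-RM and 4 in blood with a specific region 84 bp after its start. Ccr2, the receptor by which monocytes leave the marrow, had 2 peaks in KN-RM and 2 in blood and no specific region. Ly6c2, which encodes Ly6C, went against its list, with 3 peaks in KN-RM, all specific, and 1 in blood. The best of these had rank 59 in KN-RM and lay 25.1 kb from the Ly6c2 start (chr15:75086758-75086958), and a blood peak nearby had rank 38020. The whole blood list held 4 Ly6c2 peaks, more than the 3 in KN-RM, and 2 of the 3 specific regions had a peak there.

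The gene with the most blood-specific regions was Sgms2, a sphingomyelin synthase, with 0 peaks in KN-RM, 5 in Ly6CLo-RM, 11 in Ly6CHi-RM and 12 in blood. It also had 0 peaks in KC-N and KC-H. Its best region ranked 2220 in blood (chr3:131474644-131474844), and 7 of its 8 specific regions lay within 24.6 kb. Krt80, a keratin gene, had 1 peak in KN-RM, 8 in Ly6CLo-RM, 8 in Ly6CHi-RM and 9 in blood, and all 7 of its specific regions were open in both recruited lists. Pde4d, which breaks down cyclic AMP, had 7 peaks in KN-RM, 22 in Ly6CLo-RM, 25 in Ly6CHi-RM and 29 in blood. Foxp1, a forkhead factor that restrains monocyte differentiation, had 8 peaks in KN-RM, 33 in Ly6CLo-RM, 26 in Ly6CHi-RM and 28 in blood. Prkce, a protein kinase C, had 9 in KN-RM and 21 in blood, and Ptpre, a tyrosine phosphatase, had 4 in KN-RM and 23 in blood. Arhgap26, a GTPase-activating protein, had 8 in KN-RM and 17 in blood, and Gm5820, a predicted gene within it, had 2 in KN-RM and 7 in blood. Stxbp6, a SNARE-binding protein, had 3 in KN-RM and 15 in blood, and Ccdc88c, which binds Dishevelled, had 2 in KN-RM and 14 in blood. At each of these 10 genes both recruited lists had more peaks than KN-RM.

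The gene with the most KN-RM-specific regions was Sfi1, a centrosome gene, with 43 peaks in KN-RM, 14 in Ly6CLo-RM, 8 in Ly6CHi-RM and 4 in blood. Its 28 specific regions were packed into 15.7 kb (chr11:3184384-3200051), and an unplaced sequence held a further run of 35. At equal length that sequence held 113 peaks in KN-RM and 19 in blood, and the part of read mapping in these runs was not tested. Itga9, integrin alpha 9, had 26 peaks in KN-RM, 8 in Ly6CLo-RM, 4 in Ly6CHi-RM and 4 in blood. Dnmt3a, a DNA methyltransferase that writes new methylation, had 23 in KN-RM, 10 in Ly6CLo-RM, 3 in Ly6CHi-RM and 2 in blood. Ttll5, a tubulin-modifying enzyme, had 15 in KN-RM and 2 in blood, and Zdhhc14, a palmitoyltransferase, had 12 in KN-RM and 4 in blood. Prex1, a Rac activator, had 32 in KN-RM and 11 in blood. Cd47, which carries the signal that restrains engulfment, had 23 in KN-RM and 16 in blood. In the whole blood list Prex1 had 36 peaks, Cd47 26 and Zdhhc14 17, each more than in KN-RM. Of the 6 specific regions of Prex1, 4 had a peak there. All 9 regions of Itga9 and all 9 of Dnmt3a were in KC-N, while Ly6CLo-RM held 4 of the Itga9 and 7 of the Dnmt3a regions and Ly6CHi-RM 1 of each.

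**Figure D3:**
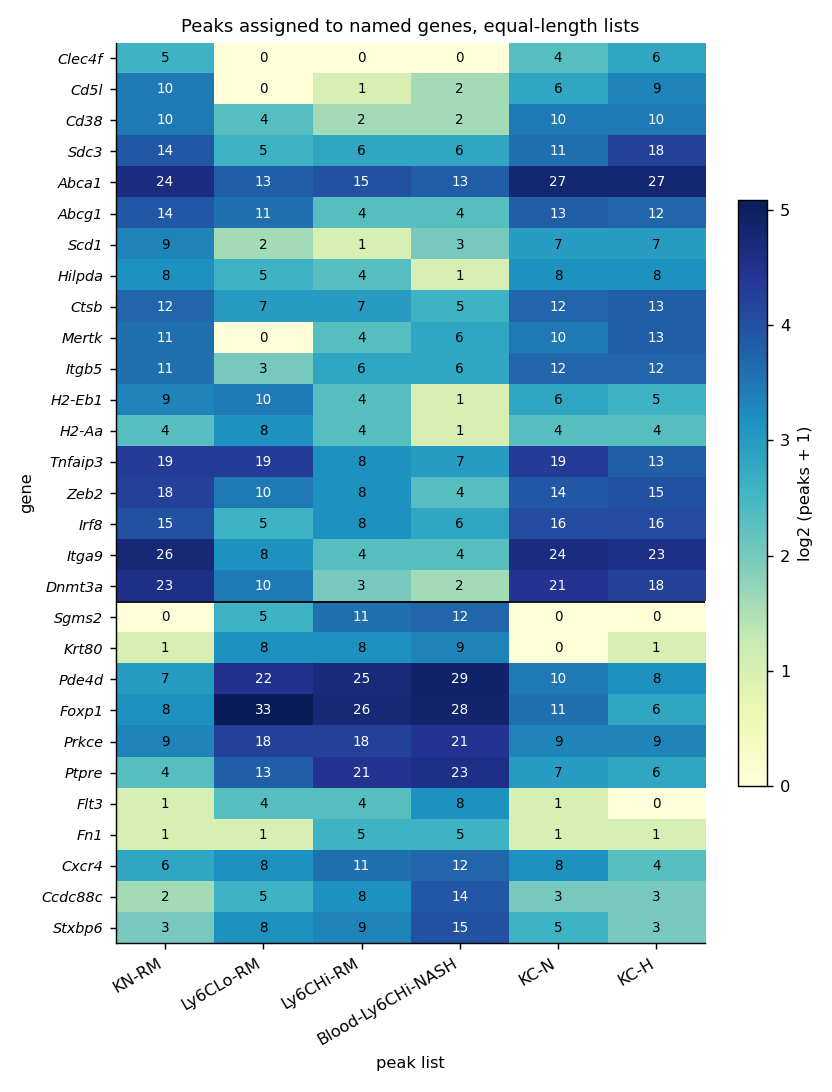
Number of peaks assigned to 29 named genes in the 6 equal-length lists, printed in each cell, with colour for log2 (peaks + 1). Genes above the line were called for KN-RM and those below for blood. At Cd5l, for example, KN-RM has 10 peaks, KC-N 6, KC-H 9 and blood 2, and at Sgms2 KN-RM has 0, Ly6CHi-RM 11 and blood 12.

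The best-scored specific regions were not at the listed genes in most cases. In KN-RM the 5 best on autosomes and X were a pair with no gene within 100 kb (chr14:19417742-19417942, signal 883.7, and chr14:19418176-19418376), the Ly6c2 region, a region at the start of chromosome 9 (chr9:3000023-3000223) and a region at Rassf8 (chr6:145802942-145803142). All of these had a blood peak of rank 38020 or worse within 1000 bp. The chromosome 14 pair lay in a run of 9 KN-RM-specific regions packed into 4.0 kb, all 9 also in each of the other 4 lists. The chromosome 9 region lay in a run of 9 over 35.9 kb. The part of read mapping in these 2 runs was not tested. In blood they were near Nxt1 (chr2:148579121-148579321), at a place with no gene within 100 kb (chr12:25389227-25389427), at the Gprin3 and Hsd11b1 promoters shown above, and in Prkce (chr17:86337219-86337419). Each of the 5 was open in both recruited lists, and Prkce was the only one open in both Tim4-positive lists.

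Counting against the whole blood list changed some of these groups. The number of members called for KN-RM minus blood was then 8 for Kupffer cell identity, 5 for LXR and lipid handling, 7 for Trem2-type genes, 5 for dead cell uptake and complement, 4 for NF-kB genes and -8 for classical monocyte genes. It came to 1 for antigen presentation, 1 for lysosome genes and 1 for early response genes, against 4, 4 and 7 at equal length.

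With specific regions of the same direction at most 25 kb apart joined, there were 1363 KN-RM-specific and 1558 blood-specific loci, of which 265 in KN-RM and 175 in blood held at least 2 regions. These held 747 of the 1845 KN-RM-specific and 407 of the 1790 blood-specific regions. One KN-RM run had 7 regions at Ctsb and Defb42 over 47.5 kb, of which 7 were in KC-N, 2 in Ly6CHi-RM and 1 in Ly6CLo-RM. Another run, of 6, lay at Golga5 and Lgmn, which encodes legumain, a lysosomal protease. In blood, 4 regions at Pdlim1, a cytoskeletal protein, and 4 at Slpi, a protease inhibitor, and its neighbour Matn4 were all open in Ly6CHi-RM and none in Ly6CLo-RM. By contrast 4 at Thbd, thrombomodulin, and its neighbour Sstr4 and 4 at Plec, a cytoskeletal linker, were open in both recruited lists and in no Tim4-positive list.

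Other gene groups were divided. Macrophage and monocyte transcription factors were called for KN-RM in 6 of 28 and for blood in 5. Their median number of peaks over both lists was above 10. Of all genes with 10 or more peaks, 25.4% were called for KN-RM and 22.0% for blood. Of the best-scored peaks of these factors, 11.6% (7.17 to 18.3%) were specific in KN-RM and 7.34% (3.77 to 13.8%) in blood. These intervals cover the 10.2% and 10.1% of all genes. Zeb2, a factor that keeps Kupffer cell identity, had 18 peaks in KN-RM, 10 in Ly6CLo-RM, 8 in Ly6CHi-RM and 4 in blood. Bach2, a transcriptional repressor, had 29 in KN-RM and 25 in blood with 5 KN-RM-specific regions, and Cebpb, a myeloid bZIP factor, had 30 in KN-RM and 19 in blood. In the whole blood list Zeb2 had 19 peaks, Bach2 45 and Cebpb 30. Of the 3 KN-RM-specific regions of Zeb2, 2 had no peak there. Cebpa, Runx2, Runx3, Bach1 and Bcl6 were the factors called for blood. Maf, a macrophage factor, had 7 peaks in KN-RM and 6 in blood with no specific region. The lean of this list changed sign when all peaks of the equal-length lists or the whole blood list were used. Genes of the Notch, TGF-beta and BMP pathways were called for KN-RM in 3 of 28 and for blood in 7. They had a median of 12.5 peaks over both lists, and 22.0% of genes with 10 or more peaks were called for blood. Of their best-scored peaks 5.56% (2.4 to 12.4%) were specific in KN-RM and 10.0% (5.15 to 18.5%) in blood. Both intervals cover the shares of all genes. Notch2, a receptor, had 7 peaks in KN-RM and 12 in blood, and Smad3, a TGF-beta signal carrier, had 10 in KN-RM and 13 in blood. Rbpj, the DNA-binding partner of Notch, had 9 peaks in KN-RM, 17 in Ly6CLo-RM, 14 in Ly6CHi-RM and 8 in blood, with no specific region. Tgfbr2, a TGF-beta receptor, was called for KN-RM with 12 peaks in KN-RM and 6 in blood, but 19 in the whole blood list. The lean of this list also changed sign when all peaks were used or a call needed 2 regions.

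Migration and adhesion genes were called for KN-RM in 6 of 26 and for blood in 6. Cxcr4, the receptor that holds leukocytes in the marrow, had 6 peaks in KN-RM, 8 in Ly6CLo-RM, 11 in Ly6CHi-RM and 12 in blood. Cx3cr1, the fractalkine receptor, had 5 in KN-RM and 6 in blood with no specific region. Ccr1, a chemokine receptor, had 13 in KN-RM and 10 in blood with 3 KN-RM-specific regions, but 18 in the whole blood list. Glycolysis and hypoxia genes were called for KN-RM in 1 of 23 and for blood in 5, among them Slc2a1, the glucose transporter, with 8 peaks in KN-RM and 10 in blood. Ldha, lactate dehydrogenase, was the gene called for KN-RM. Lysosome genes were called for KN-RM in 4 of 24 and for blood in 0, iron and heme genes for KN-RM in 4 of 22 and for blood in 3, and interferon response genes in 2 of 18 each. Irf1, an interferon-induced factor, had 18 peaks in KN-RM and 8 in blood, while Gbp5, a guanylate-binding protein, had 1 in KN-RM and 4 in blood. Steap3, a ferrireductase, had 3 peaks in KN-RM and 5 in blood with 2 blood-specific regions. Housekeeping genes were called for KN-RM in 2 of 20 and for blood in 1. Over all genes, 8.35% were called for KN-RM and 9.2% for blood. Of KN-RM best-scored peaks, 16.7% were specific for migration, 4.08% for glycolysis, 10.5% for lysosome, 8.47% for iron and 11.1% for interferon genes. The blood shares were 17.0% for migration, 10.0% for glycolysis, 2.5% for lysosome, 10.5% for iron and 14.3% for interferon genes. The intervals of these shares all cover the 10.2% and 10.1% of all genes.

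**Figure D4:**
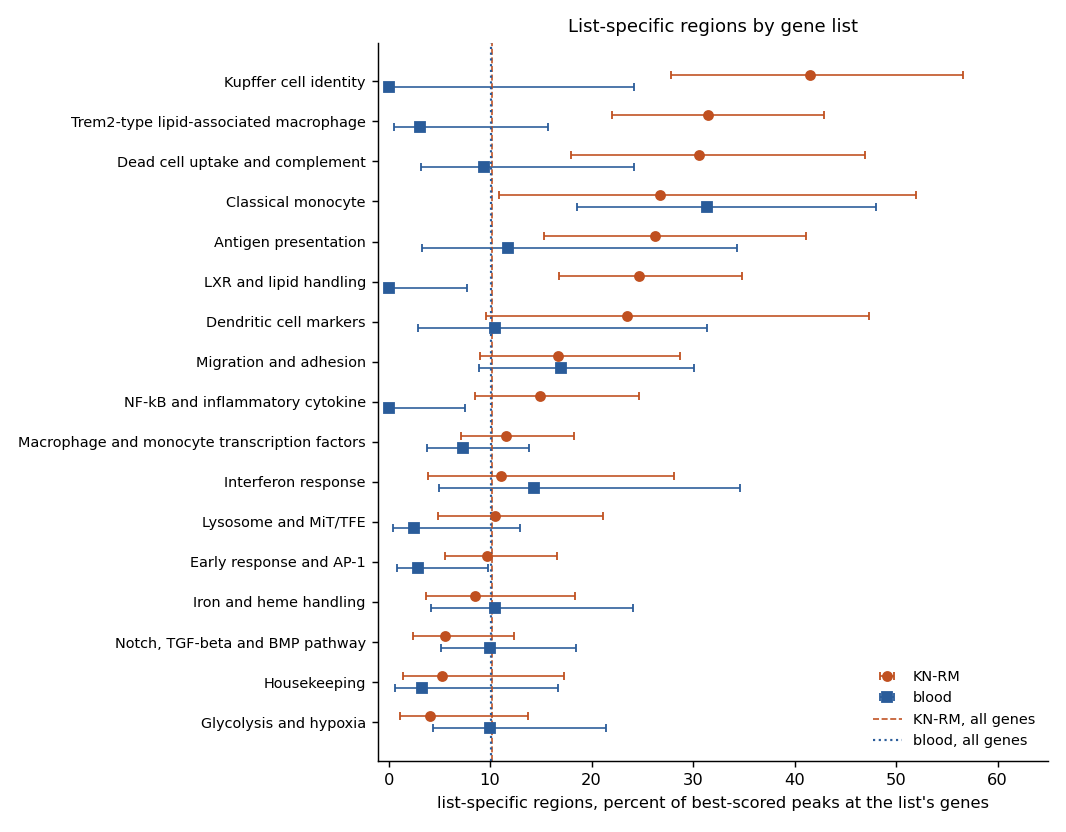
List-specific regions as a percent of the best-scored peaks assigned to each gene list, for KN-RM and blood, with 95% Wilson intervals, for the 17 lists with at least 10 such peaks on each side. Dashed and dotted lines give the 10.2% and 10.1% of all genes. The KN-RM interval lies above its line for Kupffer cell identity, Trem2-type, dead cell uptake, antigen presentation, LXR and classical monocyte genes, and the blood interval for classical monocyte genes.

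Markers of other cells that a sort could carry along were counted in the same way. Neutrophil markers were called for KN-RM in 1 of 8 and for blood in 1, T and NK cell markers for KN-RM in 0 of 8 and for blood in 2, and B cell markers in 0 of 3 for either. Over all genes, 8.35% were called for KN-RM and 9.2% for blood. Of neutrophil best-scored peaks, 2 of 6 were specific in KN-RM (33.3%, 9.68 to 70.0%) and 1 of 6 in blood (16.7%, 3.01 to 56.4%). For T and NK cells these were 0 of 3 in KN-RM (0.0 to 56.1%) and 2 of 6 in blood (33.3%, 9.68 to 70.0%). These intervals cover the 10.2% and 10.1% of all genes. Dendritic cell markers were called for KN-RM in 4 of 12 and for blood in 1, with 4 of 17 KN-RM best-scored peaks specific (23.5%, 9.56 to 47.3%) and 2 of 19 blood ones (10.5%, 2.94 to 31.4%). That lean changed sign with the best-scored 25%, with a call at 2 regions and with whole lists. Hepatocyte markers had 6 peaks in KN-RM and 11 in blood, with Ttr called for KN-RM and Hnf4a for blood. Of their best-scored peaks 1 of 3 was specific in KN-RM (33.3%, 6.15 to 79.2%) and 3 of 4 in blood (75.0%, 30.1 to 95.4%). Liver endothelial markers had 30 peaks in KN-RM and 26 in blood and were called for KN-RM in 2 of 10, among them Stab2 with 7 peaks in KN-RM and 1 in blood. Of their best-scored peaks 4 of 12 were specific in KN-RM (33.3%, 13.8 to 60.9%) and 2 of 9 in blood (22.2%, 6.32 to 54.7%). The intervals of the dendritic cell markers cover the 10.2% and 10.1% of all genes, while the KN-RM interval of endothelial and the blood interval of hepatocyte markers lie above them. All 3 blood-specific regions of the hepatocyte markers lay at Hnf4a, so that interval rests on 1 gene and not on the markers as a set. Stellate and fibroblast markers had 9 peaks in KN-RM and 8 in blood and no call. The part of other cells in the regions above was not tested.

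The arrangement of peaks around 6 named genes shows where the specific regions fall. At Hilpda they stood in 3 places upstream of the start, at H2-Eb1 from upstream to just past the start, and at Cd38 the 4 KN-RM-specific ones ran from the start into the gene, with 1 blood-specific region upstream, at -49.94 kb from the start. At Sgms2 they lay between 0.64 and 25.0 kb after the start, and within 60 kb of it KN-RM, KC-N and KC-H had no peak. Within 60 kb of the Cxcr4 start, 6 peaks in KN-RM and 11 in blood included 3 blood-specific regions, and at Flt3 3 peaks in KN-RM and 10 in blood included 2.

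**Figure D5:**
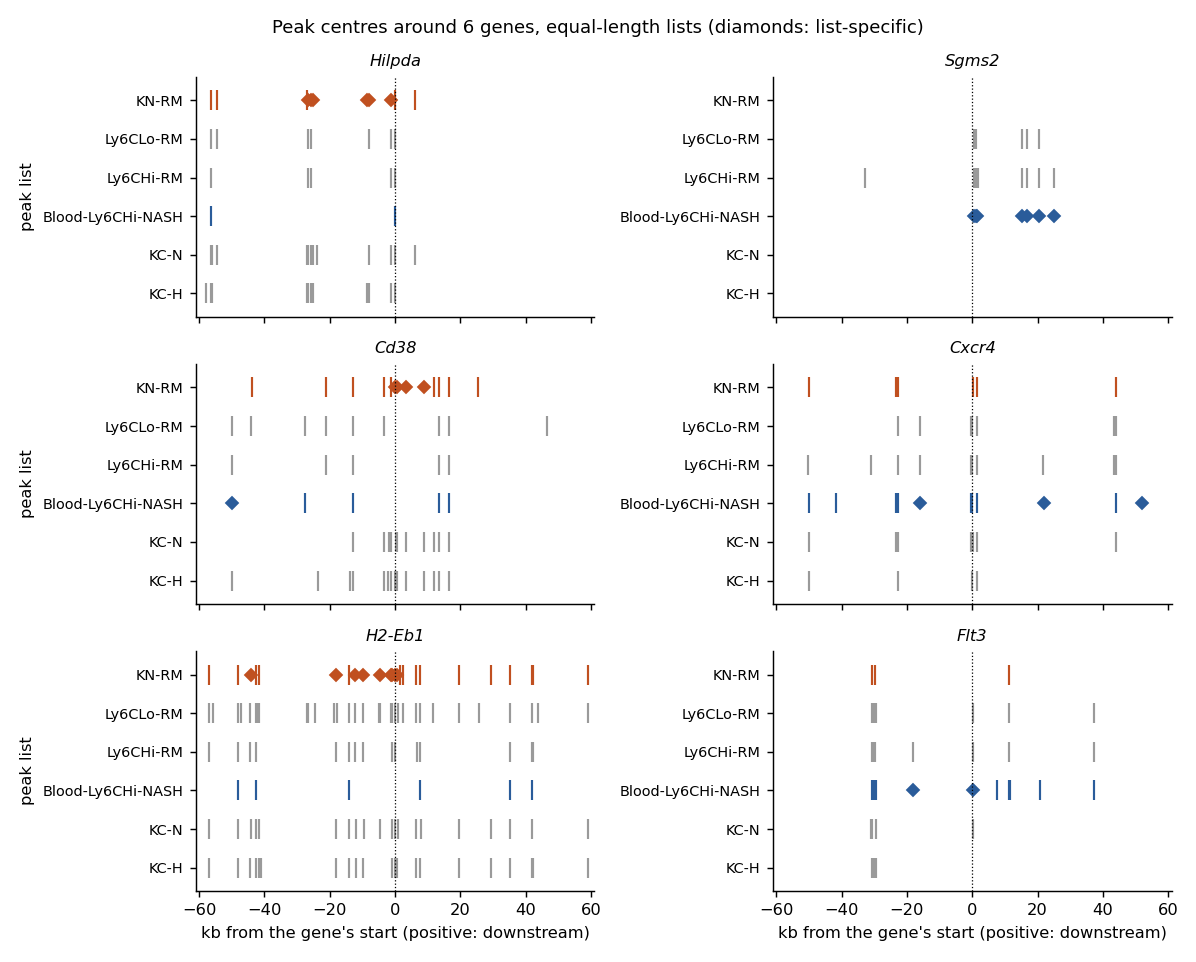
Peak centres within 60 kb of the start of 6 genes, in kb along the gene's strand, in the 6 equal-length lists. Bars are peaks and diamonds are regions specific to KN-RM or blood in their comparison. Around Hilpda 6 of 11 KN-RM peaks are specific and blood has 2 peaks, while around Sgms2 KN-RM has none and 7 of 7 blood peaks are specific.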

How the data were processed

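Open chromatin was measured by ATAC-seq in sorted mouse myeloid cells, 2 libraries per group. For each group the authors deposited 1 peak list whose name, per the labels, carries the letters IDR, for irreproducible discovery rate. Bowtie2, HOMER and DESeq2 and the builds mm10 and GRCm38 are named in the submitters' processing notes, with no role or version. Each deposited row holds a position, a signal (the authors' normalized tag count, with its scaling not stated) and a score (a whole number whose definition is not stated). Peaks were nearly all 200 bp wide. Library depth, filters on reads and whether reads were shifted are not given in sources used here.

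Peaks were ranked by score, ties by signal and position, and the blood list was cut to the length of KN-RM. Presence meant peak centres within 1000 bp. Genes were taken from RefSeq (GRCm38.p6, 21883 protein-coding genes), and start sites from the RefSeq promoter table of that build, which covers 17491 of them. Distances to starts leave out chromosomes that the promoter table does not hold. Exons, introns and sequences under distal peaks were not used here. In 23 gene lists with 490 entries, 3 symbols were not in the gene table.

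Named genes are the 10 genes per direction with most list-specific regions, at most 4 members of a list by size of difference, and 33 fixed genes, together with the 5 best-scored regions per direction on autosomes and X. Some list members called are named besides, chosen after their values were seen. The members and lists were chosen with earlier results of these data known. Alternatives were other presence rules, whole lists, ranking by signal, all peaks or the best-scored 25%, autosomes and X only, a gene window of 20 kb, a call at 2 regions and start distances of 500 and 2500 bp. Loci linked within 25 kb, gene ends in place of starts, and the region-by-region count in whole further lists were chosen after seeing the data. The functions were tested on simulated lists. Python 3.11.15 was used with pandas 2.3.3, numpy 2.4.6, matplotlib 3.10.9 and scipy 1.17.1.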

Additional observations from a re-analysis of the deposited data

How the results depend on the processing

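No paired analysis was possible because each peak list was made from both libraries of its group, and for the same reason no library was left out. Depth per library is unknown, and the score that ranks the peaks is not defined in the sources used here.

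Looking for KN-RM peaks in the whole blood list, in place of its equal-length part, gave 783 KN-RM-specific regions and 503 genes called for KN-RM, with 2.83% of the regions near a start, 90.2% of KN-RM peaks present in blood and 8 gene lists with more members called for KN-RM, against 13. The further lists were then used whole as well: 52.9% of KN-RM-specific regions were in Ly6CLo-RM, 46.9% in Ly6CHi-RM, 99.5% in KC-N and 94.5% in KC-H. Of blood-specific regions 89.2% were in Ly6CLo-RM, 99.8% in Ly6CHi-RM, 49.3% in KC-N and 52.3% in KC-H. With all peaks of the equal-length lists there were 8082 KN-RM-specific and 9352 blood-specific regions, 2906 genes called for KN-RM and 3871 for blood, and 8.68% of blood-specific regions near a start. Of the KN-RM-specific ones 37.6% were in Ly6CLo-RM, 28.2% in Ly6CHi-RM, 75.3% in KC-N and 63.5% in KC-H. Of the blood-specific ones 41.3% were in Ly6CLo-RM, 62.5% in Ly6CHi-RM, 16.8% in KC-N and 17.8% in KC-H. With the best-scored 25% there were 413 KN-RM-specific and 289 blood-specific regions, 287 genes called for KN-RM and 242 for blood, and 13.4% of blood-specific regions near a start. Of these KN-RM-specific regions 64.9% were in Ly6CLo-RM, 51.6% in Ly6CHi-RM, 99.8% in KC-N and 96.6% in KC-H. Of the blood-specific ones 81.7% were in Ly6CLo-RM, 99.3% in Ly6CHi-RM and 17.6% in KC-H.

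With presence taken as an overlap of 1 bp, 67.9% of KN-RM and 68.0% of blood peaks were present in the other list, and 15.2% of KN-RM-specific and 19.0% of blood-specific regions were near a start. Of KN-RM-specific regions 93.8% were then in KC-N and 85.5% in KC-H. Of blood-specific ones 91.8% were in Ly6CHi-RM, 27.4% in KC-N and 28.6% in KC-H. With centres within 500 bp, 72.4% of KN-RM and 70.9% of blood peaks were present, 9.64% of KN-RM-specific and 13.6% of blood-specific regions were near a start, and 97.7% of KN-RM-specific regions were in KC-N. Ranked by signal, 72.0% of blood peaks were present in KN-RM and 97.5% of KN-RM-specific regions in KC-N. A call at 2 regions left 253 genes for KN-RM and 223 for blood. Near a start lay 4.79% of KN-RM-specific and 10.0% of blood-specific regions at 500 bp, 12.3% of KN-RM-specific and 15.6% of blood-specific ones at 2500 bp, and 9.19% of KN-RM-specific and 13.5% of blood-specific ones with gene ends. The share near a start was smaller for KN-RM-specific than for blood-specific regions under every alternative run.

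Some differences changed sign, given here as KN-RM minus blood. Dendritic cell markers came to -1.0 genes with the best-scored 25%, a call at 2 regions or whole lists, and housekeeping genes to -1.0 with whole lists. Transcription factors came to -2.0 with all peaks and -3.0 with whole lists, the Notch, TGF-beta and BMP pathway to 2.0 with all peaks and 1.0 with a call at 2 regions, and glycolysis genes to 1.0 with that call. Among genes, Arhgap26 came to 1.0 regions with the best-scored 25%, Bach1 to 1.0, Elmo1 to 1.0, Hk2 to 3.0 and Klf6 to 3.0 with all peaks, Elmo1 to 1.0 also by signal, and Cd93 and Fos to -1.0 with a window of 20 kb. Of 100 named genes, 56 came to a difference of 0 with the best-scored 25%, 25 with whole lists (Maff among them), 11 by signal, 10 with a window of 20 kb and 2 to 4 under the other alternatives that moved any. The Kupffer cell identity, LXR, Trem2-type, NF-kB, dead cell uptake, antigen presentation and classical monocyte lists are not among those that changed sign. The causes were not tested.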
